A study of Canis lupus familiaris with 12 samples.

Results

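The 10 genes described here are the core and feedback genes of the Wnt/β-catenin pathway: the co-receptors LRP5 and LRP6, the feedback genes RNF43, ZNRF3, and AXIN2, the destruction complex genes AXIN1, APC, and GSK3B, and the transcription factor genes TCF7L1 and TCF7L2. They were chosen by name, with earlier results of these data known. All 10 were among the 13672 genes of the deposited table and among the 12650 genes that passed the filter on low values. Their mRNA levels come from RNASeq of MDCKII, a dog kidney epithelial cell line, with 3 libraries for each of 4 genotypes. WT cells were compared with CGN-KO cells, which lack a working gene for the tight junction protein cingulin, with CGNL1-KO cells, which lack paracingulin, a relative of cingulin found at tight and adherens junctions, and with CGN/CGNL1 double-KO cells. No group was treated. Each KO genotype was 1 line derived by CRISPR/Cas9 editing, so an effect of the lost gene and a property of that line cannot be told apart. The column of 1 double-KO library carried no replicate number, and this library is called unnumbered.

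In the canonical Wnt pathway, a complex built on AXIN1 or AXIN2 and APC holds β-catenin while the kinase GSK3B phosphorylates it, which marks it for destruction. Wnt ligands bind a Frizzled receptor together with LRP5 or LRP6, the complex is then inhibited, and β-catenin accumulates and joins TCF/LEF proteins on DNA. AXIN2, RNF43, and ZNRF3 are transcribed in response to β-catenin in many tissues and restrain the pathway: AXIN2 by rebuilding the destruction complex, RNF43 and ZNRF3 by removing Frizzled receptors from the cell surface. In epithelial cells β-catenin also binds cadherins at adherens junctions.

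The libraries held 16837532 to 30086076 reads over the listed genes. The targeted genes were at lower levels in the lines labelled for them. CGN was at 199 to 233 CPM (read counts scaled to a fixed library size) in WT and 198 to 213 CPM in CGNL1-KO libraries, against 47.0 to 56.5 CPM in CGN-KO and 39.7 to 45.3 CPM in double-KO libraries. CGNL1 was at 7.74 to 12.3 CPM in WT, 5.04 to 6.92 CPM in CGN-KO, 1.76 to 3.02 CPM in CGNL1-KO, and 1.11 to 1.76 CPM in double-KO libraries. All 9 markers of kidney epithelium in the list used were found, at a summed 5485 to 5920 CPM. They were uneven: KRT8, the highest, was at 1788 to 2111 CPM, while CDH16 was at only 0.828 to 5.14 CPM. Of the fibroblast, endothelial, and leukocyte markers, COL1A1, COL1A2, PECAM1, CDH5, TEK, PTPRC, CD3E, and ITGAM were not among the listed genes, and the summed levels of those listed were at most 11.1, 2.98, and 6.91 CPM. PDGFRA, the 1 listed fibroblast marker of 6, was at 2.7 to 5.48 CPM in WT, 5.88 to 11.1 CPM in CGN-KO, 3.75 to 9.81 CPM in CGNL1-KO, and 4.94 to 6.996 CPM in double-KO libraries. The 2 listed endothelial markers of 5, KDR and VWF, summed to 1.47 to 2.04 CPM in WT, 1.38 to 1.78 CPM in CGN-KO, 2.51 to 2.98 CPM in CGNL1-KO, and 0.690 to 0.853 CPM in double-KO libraries. The part of these markers in the results was not tested.

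RNF43 and LRP5 were higher in all 3 KO lines than in WT cells, as were 3.96% of all genes tested. AXIN2 rose in CGN-KO cells and GSK3B in CGN-KO and double-KO cells, while TCF7L2 fell in CGNL1-KO and double-KO cells. Direct tests between the KO lines with limma, given below, did not show AXIN2 or TCF7L2 to differ between them. APC, LRP6, and ZNRF3 passed the test in no comparison. A gene is said here to have risen or fallen where limma gave an adjusted p below 0.05 (Benjamini-Hochberg over all genes tested), at any fold. In CGN-KO cells 4 of the 10 genes rose and none fell, beside 19.0% of all genes changed, 11.2% higher and 7.87% lower. In CGNL1-KO cells 2 rose and 1 fell, beside 10.3% of all genes changed, 6.81% higher and 3.49% lower. In double-KO cells 3 rose and 1 fell, beside 26.3% changed, 14.8% higher and 11.5% lower. The median difference of the 10 genes from WT was 0.12, −0.046, and 0.086 on the log2 scale in CGN-KO, CGNL1-KO, and double-KO cells, beside −0.0039, −0.0031, and −0.00036 over all genes. In an F test over the 4 genotypes, 7 of the 10 differed (29.9% of all genes did): LRP5, RNF43, AXIN2, AXIN1, GSK3B, TCF7L1, and TCF7L2. The 3 KO libraries all lay to 1 side of the WT libraries for 5 of the 10 genes in CGN-KO, 6 for CGNL1-KO, and 4 for double-KO cells, beside 35.9%, 24.4%, and 45.0% of all genes. The 3 comparisons share the WT libraries, so their calls are not independent of each other.

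**Figure D1:**
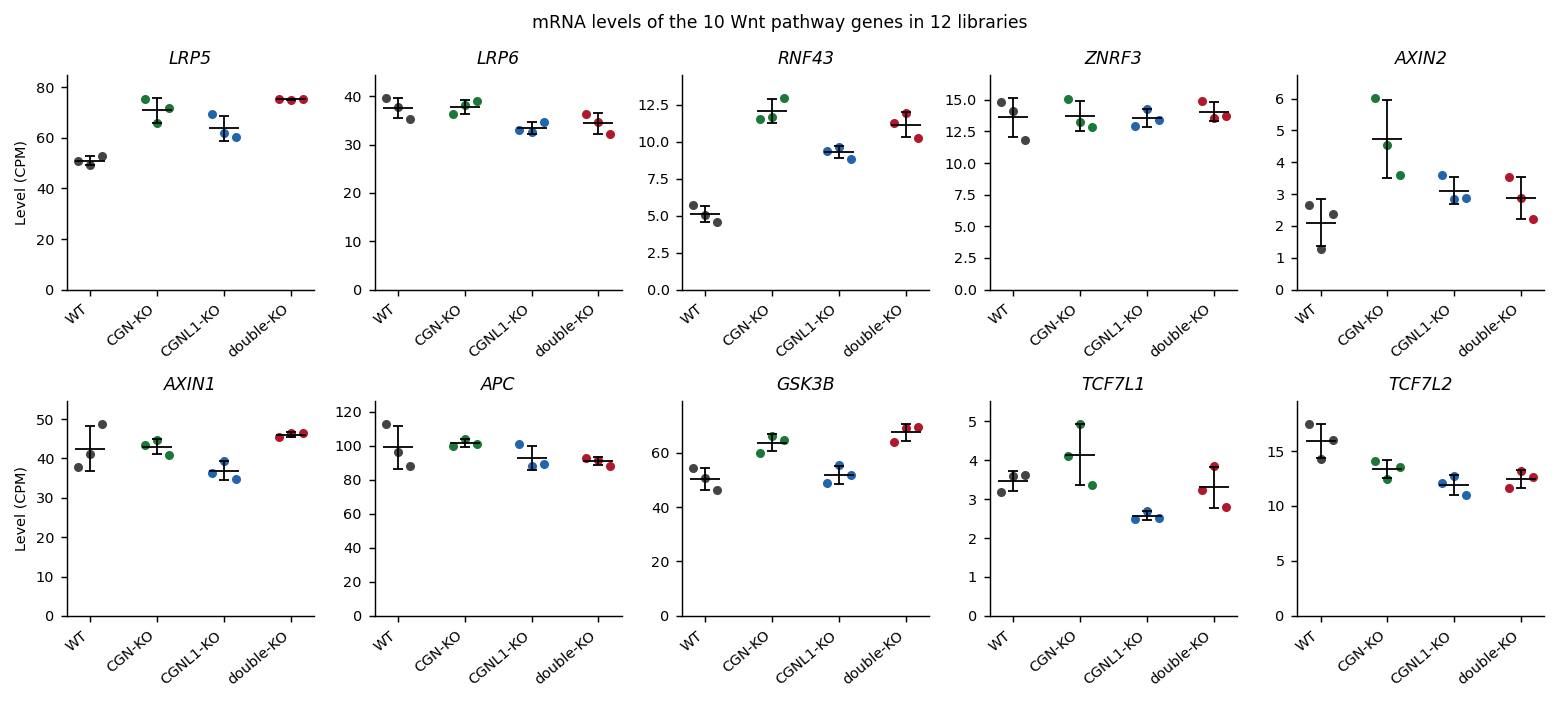
Levels of the 10 genes in CPM (vertical axes, each from 0) in the 12 libraries, grouped by genotype along the horizontal axis. Points are libraries, the wide dash is the mean and the bars are ± SD (n = 3). LRP5 and RNF43 lie above WT in all 9 KO libraries.

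LRP5 and LRP6 encode the paired co-receptors that bind Wnt together with Frizzled. LRP5 was at 50.9, 49.4, and 52.8 CPM in WT libraries 1, 2, and 3, and at 75.6, 65.8, and 71.7 CPM in CGN-KO, 69.5, 61.8, and 60.2 CPM in CGNL1-KO, and 75.2, 74.9, and 75.6 CPM in double-KO libraries (numbers 2 and 3 and the unnumbered library). No KO library overlapped the WT range, and the double-KO libraries lay within 1 CPM of each other. LRP5 rose by 0.47 ± 0.065 (SE) on log2(CPM + 1) in CGN-KO cells (adjusted p = 8.17e-05, limma), by 0.32 in CGNL1-KO cells (adjusted p = 0.00422), and by 0.55 in double-KO cells (adjusted p = 1.21e-05). The ratios of mean CPM to WT were 1.39, 1.25, and 1.47. Because RNA was taken from whole cultures, more RNA per cell and more cells of a kind that expresses the gene cannot be told apart, here or for any gene below.

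Genes near LRP5 were also higher. Over the other 397 tested genes placed on the same chromosome, the median shift from WT in the CGN-KO, CGNL1-KO, and double-KO lines was 0.090, 0.050, and 0.30 on the log2 scale. All 24 of its nearest tested neighbours lay above WT in double-KO cells and 17 of these 24 rose. With the chromosome's shift taken out, LRP5 stayed higher by 0.38 in CGN-KO (adjusted p = 0.000956, limma), 0.27 in CGNL1-KO (adjusted p = 0.0201), and 0.25 in double-KO cells (adjusted p = 0.0137). With the shift of the 24 neighbours taken out instead, the differences were 0.30, 0.24, and 0.27 (adjusted p = 0.00497, 0.0358, and 0.00801). The difference in double-KO cells was thus less than it was without either correction, and it kept its call under both.

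LRP6 did not pass the test in any line. Its levels were 39.6, 37.8, and 35.4 CPM in WT, 36.2, 38.2, and 38.9 CPM in CGN-KO, 33.0, 32.5, and 34.7 CPM in CGNL1-KO, and 36.3, 34.6, and 32.1 CPM in double-KO libraries. The 3 CGNL1-KO libraries lay below all WT libraries, with a log2 difference of −0.16 (95% interval −0.31 to −0.023, adjusted p = 0.147, limma), while the other lines overlapped WT. Within each library the ratio of LRP5 to LRP6 was 1.36 ± 0.11 in WT (mean ± SD, n = 3), 1.88 ± 0.19 in CGN-KO, 1.91 ± 0.19 for CGNL1-KO, and 2.20 ± 0.14 for double-KO cells. Every KO library had a ratio above the highest WT ratio. Ratios between genes depend on transcript length and are read here only across genotypes.

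**Figure D2:**
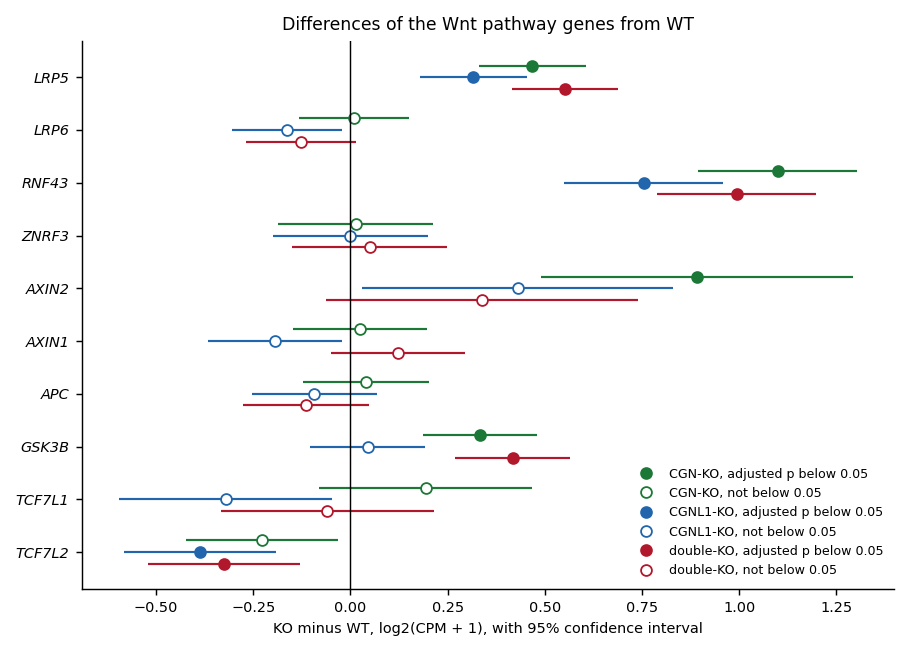
Differences of the 10 genes from WT on log2(CPM + 1) (horizontal axis) for CGN-KO, CGNL1-KO, and double-KO cells, with 95% confidence intervals from limma. Filled points have an adjusted p below 0.05 and open points do not. RNF43 lies farthest from 0 in each line, at 1.10, 0.75, and 0.99.

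RNF43 and ZNRF3 encode related membrane E3 ubiquitin ligases that clear Frizzled receptors. RNF43 was at 5.72, 5.02, and 4.59 CPM in WT, 11.6, 11.7, and 13.0 CPM in CGN-KO, 9.40, 9.61, and 8.83 CPM in CGNL1-KO, and 11.3, 11.9, and 10.3 CPM in double-KO libraries. The lowest KO library lay above the highest WT library by more than the whole WT range. RNF43 rose by 1.10 ± 0.096 (SE) on log2(CPM + 1) in CGN-KO (adjusted p = 7.40e-07, limma), 0.75 in CGNL1-KO (adjusted p = 6.96e-05), and 0.99 in double-KO cells (adjusted p = 1.68e-06). The mean CPM was 2.36, 1.82, and 2.18 times that of WT. RNF43 in CGN-KO cells was the only value of the 10 genes that reached a 2-fold difference on this scale, which 1.31% of all genes did in CGN-KO, 0.617% for CGNL1-KO, and 1.41% for double-KO cells. With edgeR or DESeq2 on the reads recovered from the CPM values, or with a pseudocount of 0.25, AXIN2 in CGN-KO and RNF43 in double-KO cells also reached it. Its 24 neighbours had median shifts of 0.073, 0.12, and 0.13 on the log2 scale, and with these taken out RNF43 stayed higher by 1.03, 0.64, and 0.87 (adjusted p = 1.64e-06, 0.000522, and 9.91e-06).

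ZNRF3 showed no difference that passed the test. Its levels were 14.8, 14.1, and 11.9 CPM in WT, 15.1, 13.3, and 12.8 CPM in CGN-KO, 12.9, 14.3, and 13.4 CPM in CGNL1-KO, and 14.9, 13.6, and 13.8 CPM in double-KO libraries. All 4 genotypes overlapped. The 95% intervals of the log2 difference from WT were −0.19 to 0.21, −0.20 to 0.20, and −0.15 to 0.25 in CGN-KO, CGNL1-KO, and double-KO cells (adjusted p = 0.945, 0.999, and 0.741, limma). The ratio of RNF43 to ZNRF3 within a library was 0.376 ± 0.018 in WT (mean ± SD, n = 3), 0.886 ± 0.12 in CGN-KO, 0.685 ± 0.036 for CGNL1-KO, and 0.794 ± 0.075 for double-KO cells, and all 9 KO libraries lay above WT.

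AXIN2 encodes the inducible scaffold of the destruction complex and is widely used as a readout of β-catenin signaling. It was at 2.65, 1.27, and 2.39 CPM in WT, from 23 to 50 reads per library, and at 6.03, 4.54, and 3.60 CPM in CGN-KO libraries, from 61 to 183 reads. It was at 3.60, 2.84, and 2.89 CPM in CGNL1-KO and at 3.53, 2.88, and 2.23 CPM in double-KO libraries. The CGN-KO and CGNL1-KO libraries lay above all WT libraries, and the double-KO libraries overlapped them. AXIN2 rose by 0.89 ± 0.19 (SE) on log2(CPM + 1) in CGN-KO cells (adjusted p = 0.00319, limma), with a mean CPM 2.25 times that of WT. The differences of 0.43 in CGNL1-KO (95% interval 0.030 to 0.83, adjusted p = 0.185) and 0.34 in double-KO cells (−0.063 to 0.74, adjusted p = 0.206) did not pass. Without WT library 2, which had the fewest AXIN2 reads, these differences were 0.22 and 0.13, and without double-KO library 2 the second was also 0.22. The CGN-KO difference was 0.68 without WT library 2. It was 0.73 without CGN-KO library 1, which had the highest level, and it passed in both cases. With the replicate number as a block, which leaves out the unnumbered library, the double-KO difference was 0.59 and passed. The 3 genes whose log2 levels were most like those of AXIN2 over the 12 libraries were LOC102155131 (Pearson r = 0.949), SEMA4G (0.933), and TMEM164 (0.931), given as a description.

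AXIN2 and RNF43 lie on the same chromosome, and its median shift was at most 0.040 in any line. The 24 genes nearest to AXIN2 had medians of −0.090, −0.084, and −0.12 in CGN-KO, CGNL1-KO, and double-KO cells on the log2 scale. Taking these out moved the AXIN2 difference in CGN-KO cells to 0.98 (adjusted p = 0.00213, limma).

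AXIN1 is the constitutive relative of AXIN2. Its levels were 37.7, 41.0, and 48.8 CPM in WT, 43.3, 44.8, and 41.0 CPM in CGN-KO, 36.4, 39.4, and 34.7 CPM in CGNL1-KO, and 45.4, 46.4, and 46.5 CPM in double-KO libraries. WT library 3 was the highest of all 12, and WT overlapped every KO line. The log2 differences from WT were 0.024, −0.19, and 0.12, none of which passed (adjusted p = 0.870, 0.159, and 0.291, limma). Without WT library 1 the CGNL1-KO value became −0.27 and passed, and without WT library 3 the double-KO value became 0.22 and passed, so WT libraries decided these calls. The ratio of AXIN2 to AXIN1 within a library was 0.0501 ± 0.020 in WT (mean ± SD, n = 3), 0.110 ± 0.027 in CGN-KO, 0.0847 ± 0.013 for CGNL1-KO, and 0.0626 ± 0.015 for double-KO cells. CGN-KO and CGNL1-KO libraries lay above WT in this ratio, and double-KO libraries overlapped WT.

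APC, the tumor suppressor scaffold of the destruction complex, was at 113, 96.6, and 88.1 CPM in WT, 99.7, 104, and 101 CPM in CGN-KO, 101, 88.0, and 89.2 CPM in CGNL1-KO, and 93.2, 92.0, and 88.2 CPM in double-KO libraries. The KO libraries lay inside the WT range, apart from the lowest CGNL1-KO library just under it. The 95% intervals of its log2 difference from WT were −0.12 to 0.20, −0.25 to 0.069, and −0.28 to 0.047 in CGN-KO, CGNL1-KO, and double-KO cells (adjusted p = 0.755, 0.530, and 0.291, limma).

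GSK3B, the kinase that phosphorylates β-catenin in the complex, was at 54.3, 50.6, and 46.2 CPM in WT, 60.0, 66.0, and 64.8 CPM in CGN-KO, 48.8, 55.3, and 51.7 CPM in CGNL1-KO, and 63.9, 68.9, and 69.7 CPM in double-KO libraries. The CGN-KO and double-KO libraries lay above all WT and CGNL1-KO libraries, and the last 2 groups overlapped. GSK3B rose by 0.33 ± 0.070 (SE) on log2(CPM + 1) in CGN-KO (adjusted p = 0.00294, limma) and by 0.42 in double-KO cells (adjusted p = 0.000355). In CGNL1-KO cells the difference was 0.045 (95% interval −0.10 to 0.19, adjusted p = 0.772).

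The neighbours of GSK3B were higher in the same lines. Their median log2 shifts in the CGN-KO, CGNL1-KO, and double-KO lines were 0.27, 0.0041, and 0.23, while those of the other 123 tested genes of the chromosome lay between −0.0084 and 0.0092. In both CGN-KO and double-KO cells 12 of the 24 neighbours rose. With the neighbours' shift taken out, GSK3B differed from WT by 0.062 in CGN-KO (adjusted p = 0.570, limma) and 0.18 in double-KO cells (adjusted p = 0.0577), and neither passed. Of the 10 genes, GSK3B and TCF7L2 were those that lost a call against WT under this correction, which was chosen after seeing the data.

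**Figure D3:**
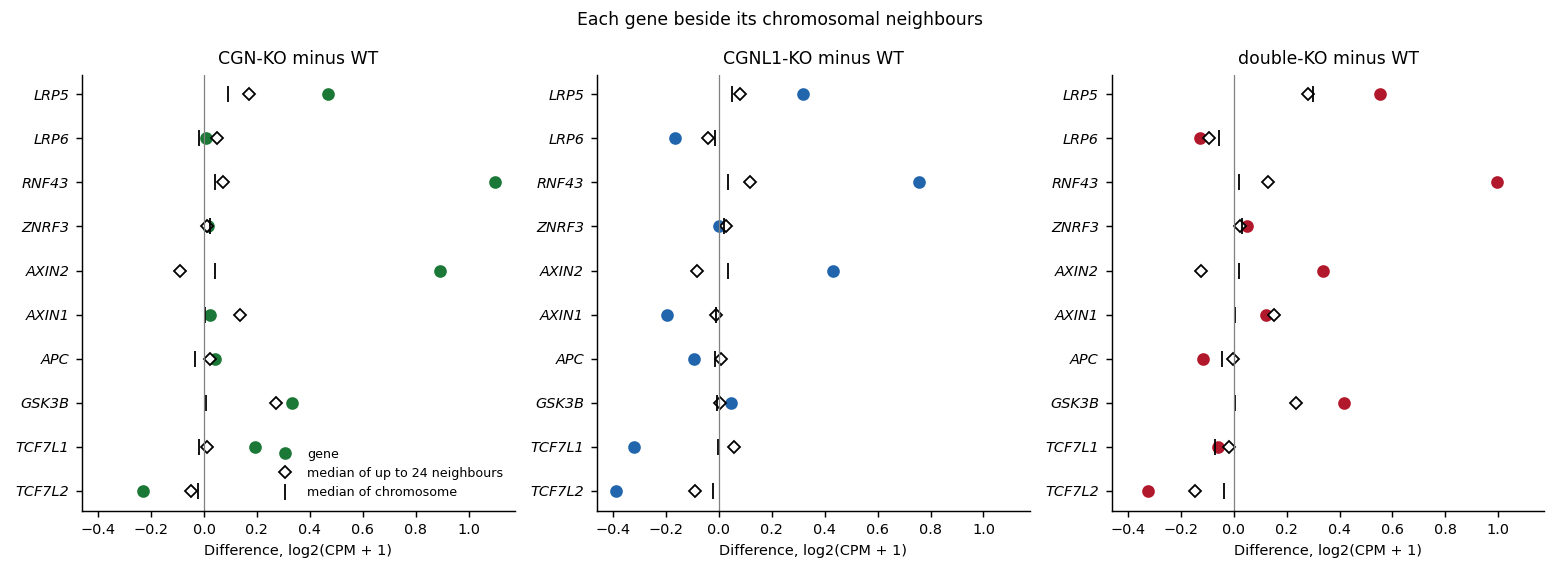
Difference from WT on log2(CPM + 1) (horizontal axes) of each of the 10 genes (colored point), with the median shift of its up to 24 nearest tested genes (diamond) and of the other tested genes of its chromosome (tick), in CGN-KO, CGNL1-KO, and double-KO cells. APC has 14 neighbours in this set. For GSK3B in CGN-KO cells the diamond at 0.27 lies close to the gene at 0.33, and for LRP5 in double-KO cells the diamond and tick lie at 0.28 and 0.30.

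TCF7L2 and TCF7L1 encode DNA-binding partners of β-catenin, TCF7L1 acting mostly as a repressor. TCF7L2 was at 17.4, 14.3, and 16.0 CPM in WT, 14.1, 12.5, and 13.6 CPM in CGN-KO, 12.1, 12.7, and 11.0 CPM in CGNL1-KO, and 11.6, 13.2, and 12.6 CPM in double-KO libraries. All 9 KO libraries lay below the lowest WT library, the highest CGN-KO library only just. TCF7L2 fell by 0.39 ± 0.092 (SE) on log2(CPM + 1) in CGNL1-KO (adjusted p = 0.0122, limma) and by 0.33 in double-KO cells (adjusted p = 0.0156), and its difference in CGN-KO cells was −0.23 (adjusted p = 0.0953). Both calls were lost without WT library 1 (differences −0.32 and −0.26). The CGNL1-KO call was also lost without CGNL1-KO library 3 (−0.33) and the double-KO call without double-KO library 2 (−0.28). With the neighbours' shift taken out, the differences were −0.30 in CGNL1-KO (adjusted p = 0.0531) and −0.18 in double-KO cells (adjusted p = 0.179).

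TCF7L1 was at 3.18, 3.59, and 3.63 CPM in WT, 4.12, 4.94, and 3.37 CPM in CGN-KO, 2.50, 2.71, and 2.51 CPM in CGNL1-KO, and 3.24, 3.86, and 2.81 CPM in double-KO libraries. CGNL1-KO libraries lay below all others, and the other 3 genotypes overlapped. No difference from WT passed, the largest being −0.32 in CGNL1-KO cells (95% interval −0.60 to −0.047, adjusted p = 0.144, limma). The ratio of TCF7L1 to TCF7L2 within a library was 0.220 ± 0.035 in WT (mean ± SD, n = 3), 0.312 ± 0.076 in CGN-KO, 0.217 ± 0.012 for CGNL1-KO, and 0.265 ± 0.038 for double-KO cells, and each KO line overlapped WT.

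**Figure D4:**
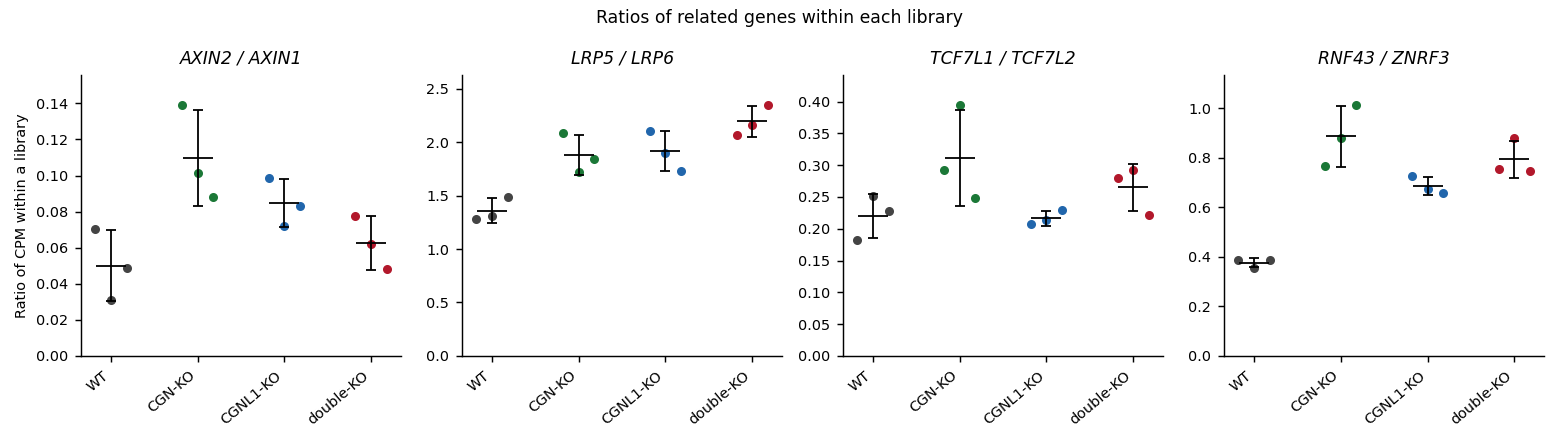
Ratio of the CPM of related genes within each library (vertical axes, each from 0) by genotype: AXIN2 to AXIN1, LRP5 to LRP6, TCF7L1 to TCF7L2, and RNF43 to ZNRF3. Points are libraries and the dash and bars are the mean ± SD (n = 3). The LRP5 to LRP6 and RNF43 to ZNRF3 ratios of the 9 KO libraries lie above those of WT, while TCF7L1 to TCF7L2 overlaps WT in each line.

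The KO lines were then compared with each other. Each KO genotype was 1 line, so these tests compare lines and cannot show an effect of which junctional protein is missing. CGNL1 mRNA was itself lower in CGN-KO than in WT cells, by a log2 difference of −0.61 (adjusted p = 0.0201, limma). This call held in 18 of 21 other settings. Of 30 gene and line pairs, 6 differed. CGN-KO exceeded CGNL1-KO cells in GSK3B by 0.29 on log2(CPM + 1) (adjusted p = 0.0222, limma), TCF7L1 by 0.51 (adjusted p = 0.0281), and RNF43 by 0.35 (adjusted p = 0.0494), beside 5.19% of all genes that differed between these lines. The GSK3B difference was 0.021 with its neighbours' shift taken out (adjusted p = 0.914). AXIN2 was higher in CGN-KO than in CGNL1-KO cells by 0.46 and TCF7L2 by 0.16, and neither passed (adjusted p = 0.207 and 0.412, limma). Double-KO exceeded CGNL1-KO cells in AXIN1 by 0.32 (adjusted p = 0.0147), GSK3B by 0.37 (adjusted p = 0.00201), and LRP5 by 0.24 (adjusted p = 0.0217), beside 14.4% of all genes. With the chromosome's shift taken out the LRP5 difference was −0.013 (adjusted p = 0.932), and with the neighbours' shift taken out those of AXIN1 and GSK3B were 0.15 (adjusted p = 0.185) and 0.14 (adjusted p = 0.196).

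No member differed between double-KO and CGN-KO cells in limma or edgeR, beside 8.84% of all genes in limma. AXIN2 had the only unadjusted p below 0.05, at 0.0098, with double-KO cells lower by a log2 difference of −0.55 (95% interval −0.95 to −0.15, adjusted p = 0.0841, limma). It was called in 3 of the other settings: with DESeq2, with only these groups in the fit, and without WT library 2. RNF43 differed between these lines by −0.11 (95% interval −0.31 to 0.099), LRP5 by 0.084 (−0.053 to 0.22), and GSK3B by 0.084 (−0.064 to 0.23). The TCF7L2 difference was −0.096 (95% interval −0.29 to 0.099, adjusted p = 0.594, limma). The GSK3B call between double-KO and CGNL1-KO cells held on leaving out any 1 library, and the other 5 calls did not. The 3 calls between CGN-KO and CGNL1-KO cells were all lost without CGN-KO library 2, where the differences in GSK3B, TCF7L1, and RNF43 were 0.26, 0.40, and 0.37, and without CGNL1-KO library 3, where they were 0.29, 0.50, and 0.31. They were also lost, at unchanged differences, when only these 2 groups entered the fit. Of 21 other settings the RNF43 call held in 6, the LRP5 call in 14, the TCF7L1 call and that of GSK3B between CGN-KO and CGNL1-KO cells in 16 each, the AXIN1 call in 17, and that of GSK3B between double-KO and CGNL1-KO cells in 20. Settings that leave out a library of a genotype outside the comparison keep the difference and change only its test.

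The wider pathway was described from 111 other Wnt genes, of which 70 were among the listed genes and 64 passed the filter on low values. In CGN-KO cells 16 of the 64 rose and 3 fell, beside 11.2% of all genes higher and 7.87% lower. In CGNL1-KO cells 5 rose and 4 fell, beside 6.81% higher and 3.49% lower. The double-KO line had 19 that rose and 4 that fell, beside 14.8% higher and 11.5% lower. Their median log2 difference from WT was 0.075, −0.0039, and 0.059, beside −0.0039, −0.0031, and −0.00036 over all genes. These counts moved with single libraries: 12 genes were called in CGN-KO cells without CGN-KO library 2 and 15 in double-KO cells without double-KO library 3. The shares of all genes given here are from the fit of all libraries and do not apply to these 2 counts. CTNNB1, which encodes β-catenin itself, was at 611 ± 20 CPM in WT (mean ± SD, n = 3), 795 ± 54 CPM in CGN-KO, 729 ± 57 CPM in CGNL1-KO, and 707 ± 17 CPM in double-KO cells. All 9 KO libraries lay above WT, whose highest was 628 CPM. CTNNB1 rose by 0.38, 0.25, and 0.21 on log2(CPM + 1) (adjusted p = 0.000658, 0.0210, and 0.0268, limma). The call in CGNL1-KO cells was lost on leaving out 3 of the 12 libraries in turn and that in double-KO cells on leaving out 5, with values of at least 0.21 and 0.18.

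Among the 7 tested ligand genes and ligand carriers, 3 rose in CGN-KO, 1 for CGNL1-KO, and 3 for double-KO cells, and none fell, beside 11.2%, 6.81%, and 14.8% of all genes higher. WLS, the carrier that Wnt proteins need for secretion, was at 169 ± 7.6 CPM in WT (mean ± SD, n = 3), 246 ± 5.5 in CGN-KO, 208 ± 1.4 in CGNL1-KO, and 218 ± 7.6 CPM in double-KO cells. It rose by 0.54, 0.30, and 0.37 on log2(CPM + 1) (adjusted p = 1.03e-06, 0.000658, and 4.17e-05, limma), and no KO library overlapped WT. The ligand gene WNT2 rose in double-KO cells, from 6.60 ± 0.60 to 13.3 ± 0.79 CPM, by 0.91 (adjusted p = 4.51e-06), and its values in the other lines were 0.065 and 0.12. WNT5B rose by 0.59 in CGN-KO (adjusted p = 0.00609) and 0.52 in double-KO cells (adjusted p = 0.010), the latter lost without WT library 2 (0.40). WNT9A rose by 0.49 in CGN-KO cells (adjusted p = 0.00730).

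Of the 12 other receptor genes tested, 3 rose and 2 fell in CGN-KO, 2 fell in CGNL1-KO, and 2 rose and 2 fell in double-KO cells, beside 19.0%, 10.3%, and 26.3% of all genes changed. The Frizzled genes moved in both directions. Besides those described next, FZD2 rose in CGN-KO and double-KO cells, and in CGN-KO cells FZD7 rose and KREMEN1, a receptor for Dickkopf proteins, fell. These 3, and the genes named below without a value, were named after their values were seen, to complete the counts. FZD1 rose by 0.62 in CGN-KO and 0.63 in double-KO cells on log2(CPM + 1) (adjusted p = 0.00222 and 0.00150, limma), from 2.36 CPM in WT to 4.18 and 4.24 CPM. FZD4 fell from 15.4 CPM in WT to 10.5 CPM in CGN-KO and 8.70 CPM in double-KO cells, by 0.53 and 0.75 (adjusted p = 0.0106 and 0.000623). The first of these calls was lost without CGN-KO library 2 or 3, with differences of −0.45 in both. FZD8 fell by 0.65 in double-KO cells (adjusted p = 0.00226) and by 0.46 in CGNL1-KO cells (adjusted p = 0.0415), the latter lost in 12 of 21 other settings, edgeR and DESeq2 included. LGR6, a receptor for R-spondins, the proteins that counter RNF43 and ZNRF3, fell from 3.30 to 1.05 CPM in CGNL1-KO cells, by 1.07 (adjusted p = 0.000136), and was at 3.54 CPM in CGN-KO and 2.42 CPM in double-KO cells.

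**Figure D5:**
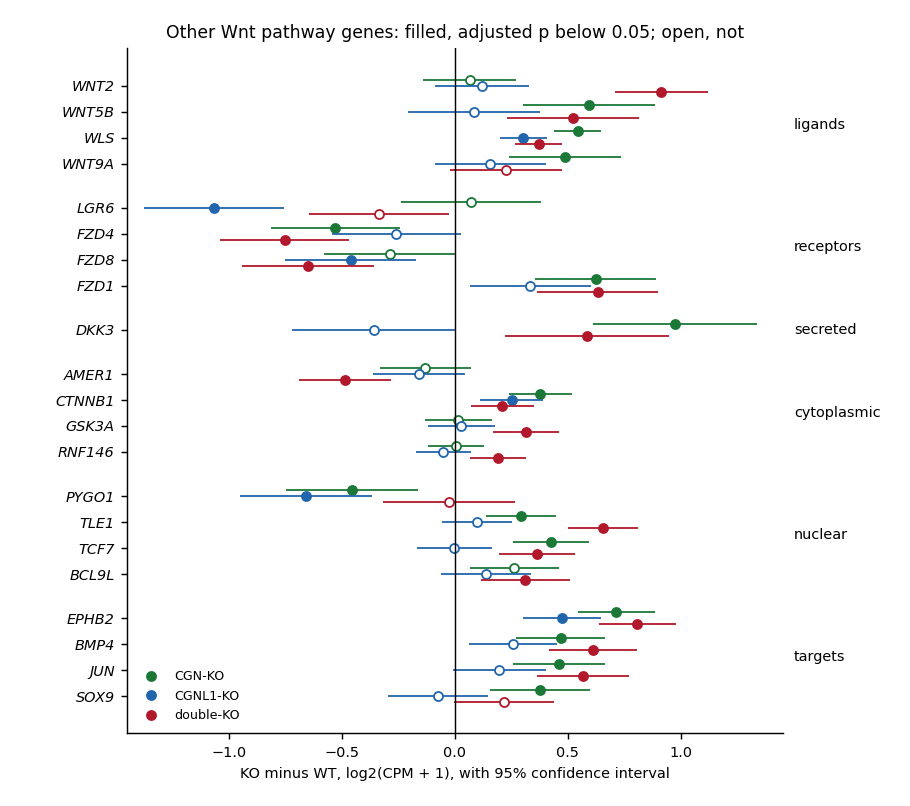
Differences from WT on log2(CPM + 1) (horizontal axis) of the other named Wnt pathway genes, grouped by role, for CGN-KO, CGNL1-KO, and double-KO cells. Bars are 95% confidence intervals from limma, filled points have an adjusted p below 0.05 and open points do not. Genes were named for being called and lying apart from WT in a comparison, so each has a filled point by choice, and other tested genes are not shown. WLS, CTNNB1, and EPHB2 are filled and above 0 in all 3 lines.

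DKK3, a divergent member of the Dickkopf family of secreted proteins, was the 1 of 3 tested secreted regulators that rose, by 0.97 in CGN-KO (adjusted p = 0.000723, limma) and 0.58 in double-KO cells (adjusted p = 0.0187). Its level was 8.64 ± 1.2 CPM in WT (mean ± SD, n = 3), 18.2 ± 4.9 in CGN-KO, 6.58 ± 1.4 in CGNL1-KO, and 13.5 ± 2.2 CPM in double-KO cells, and the CGNL1-KO difference was −0.36 (adjusted p = 0.231). The double-KO call was lost without WT library 2 or double-KO library 2 or 3, with values of 0.49 to 0.54. Of 17 cytoplasmic components, CTNNB1 was the 1 that rose in each single KO, while 5 rose and 1 fell in double-KO cells, the casein kinase genes CSNK1D and CSNK1G2 among those that rose. Over all genes, 19.0%, 10.3%, and 26.3% changed in CGN-KO, CGNL1-KO, and double-KO cells. AMER1, which tethers APC to the membrane, fell there by 0.49 (adjusted p = 0.00132). GSK3A, the relative of GSK3B, rose there by 0.31 (adjusted p = 0.00314), a value of 0.12 with its chromosome's shift taken out, which did not pass. RNF146, a ubiquitin ligase that destabilizes AXIN proteins, rose by 0.19 (adjusted p = 0.0220), and its direction turned with the chromosome's shift taken out (−0.0068).

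Of 13 nuclear components, 3 rose and 1 fell in CGN-KO, 2 fell in CGNL1-KO, and 4 rose in double-KO cells, beside the same 19.0%, 10.3%, and 26.3% of all genes changed. The corepressor gene CTBP2 was among those that rose in CGN-KO cells, the coactivator gene PYGO2 among those in double-KO cells, and the acetyltransferase gene CREBBP fell in CGNL1-KO cells. TCF7, a further TCF/LEF gene, rose from 92.2 ± 13 CPM in WT (mean ± SD, n = 3) to 124 ± 9.99 in CGN-KO and 118 ± 2.2 CPM in double-KO cells, by 0.43 and 0.36 on log2(CPM + 1) (adjusted p = 0.00114 and 0.00283, limma), and was at 91.6 ± 2.7 CPM in CGNL1-KO cells. TLE1, a Groucho-type corepressor that binds TCF proteins, rose by 0.29 in CGN-KO (adjusted p = 0.00916; 0.23 without CGN-KO library 2, not called) and 0.65 in double-KO cells (adjusted p = 6.26e-06). BCL9L, a β-catenin coactivator, rose by 0.31 in double-KO cells (adjusted p = 0.0204), a call lost on leaving out any of 4 libraries. PYGO1, whose product joins BCL9 proteins in the β-catenin complex, fell by 0.66 in CGNL1-KO (adjusted p = 0.00492) and by 0.46 in CGN-KO cells (adjusted p = 0.0283), the latter lost on leaving out any of 4 libraries.

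Of 12 tested genes known as β-catenin targets in other tissues, 5 rose in CGN-KO, 3 for CGNL1-KO, and 4 for double-KO cells, where KLF5 fell, beside 11.2%, 6.81%, and 14.8% of all genes higher. VEGFA was among those that rose in both single KO lines, and CD44 among those in CGNL1-KO and double-KO cells. EPHB2, an ephrin receptor, was at 73.3 ± 3.9 CPM in WT (mean ± SD, n = 3), 121 ± 16 in CGN-KO, 102 ± 4.1 in CGNL1-KO, and 129 ± 8.4 CPM in double-KO cells. It rose by 0.71, 0.47, and 0.81 on log2(CPM + 1) (adjusted p = 1.00e-05, 0.000961, and 2.32e-06, limma). BMP4, a growth factor gene, rose by 0.47 in CGN-KO and 0.61 in double-KO cells (adjusted p = 0.00183 and 0.000141), and JUN, an AP-1 transcription factor gene, by 0.46 and 0.57 (adjusted p = 0.00291 and 0.000399). SOX9 rose by 0.38 in CGN-KO cells (adjusted p = 0.0181), a call lost on leaving out any of 3 libraries. The median log2 difference of the 12 target genes was 0.13, 0.21, and 0.19 in CGN-KO, CGNL1-KO, and double-KO cells, beside −0.0039, −0.0031, and −0.00036 over all genes.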

How the data were processed

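RNASeq libraries were made by the authors with a TruSeq stranded kit from MDCKII cells of 4 genotypes (3 libraries each). Per the methods and the submitters' processing notes, single reads were aligned with STAR 2.7.0f to CanFam3.1 and counted with HTSeq 0.9.1. The strand setting of the counting is not given in the sources used here. The deposited values are a signal in CPM that includes an edgeR scaling factor. In each library 100% of values were whole multiples of 1 read (tolerance 0.01 read), which gave reads back for the count tests. The CPM values were tested with limma 3.58.1 (R 4.3.3) on log2(CPM + 1) in 1 fit of the 12 libraries, for the 12650 genes above 1 CPM in at least 3 libraries, with Benjamini-Hochberg adjustment in each comparison. A fold on this scale understates the change of low genes. Replicates differed by more than sampling noise (chi-square per degree of freedom 2.54 to 24.0). The labels do not say that they were separate cultures, so p-values measure the spread between these libraries. The fit was also run on simulated libraries that varied independently, with the same noise setting for all genes. That run cannot test for deviations shared between libraries, which are described below.

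Each value was recomputed under 21 alternatives: leaving out each of the 12 libraries in turn, a pseudocount of 0.25, no filter, scaling to library totals, only the 2 groups compared, edgeR 4.0.16 and DESeq2 1.42.0 on the recovered reads, the replicate number as a block, and the median shift of the gene's chromosome or of its 24 nearest tested genes taken out of each library. Gene order came from the RefSeq genes of assembly UU_Cfam_GSD_1.0. That build differs from the files', so no coordinates are given. By symbol or unambiguous synonym, 11752 of the 12650 genes (92.9%) were placed, leaving out chromosomes with few tested genes. No sequence or transcript length was used here. Levels are not compared between genes, apart from the description of the cell type markers, which takes no account of length. CGN-KO and CGNL1-KO libraries with the same number deviated together (correlations of 0.63, 0.48, and 0.18, all above 0.1), which the labels do not explain. The block kept the 3 calls between these lines. Other pairs of genotypes did not show this for every number. WT libraries 1 and 2 deviated together with the CGN-KO (0.37 and 0.32) and CGNL1-KO (0.33 and 0.37) libraries of their number. For WT library 3 the correlations were −0.082 and 0.011. Those of double-KO libraries with other genotypes lay between −0.235 and 0.086.

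The members and gene lists were chosen with earlier results of these data known. The 10 genes, CGN, CGNL1, and CTNNB1 were named by rule. Of each other list, up to 4 genes were named: those changed in a comparison with WT whose groups did not overlap there, by the size of the difference.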

Additional observations from a re-analysis of the deposited data

Results flagged for a closer look

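6 differences between KO lines were singled out because the lines differed from each other in a direct test (limma, log2(CPM + 1)), so their differences from the shared WT libraries were unequal. GSK3B was higher by 0.29 (0.2884) in CGN-KO and by 0.37 (0.3726) in double-KO than in CGNL1-KO cells. TCF7L1 was higher by 0.51 (0.5143) and RNF43 by 0.35 (0.3454) in CGN-KO than in CGNL1-KO cells. AXIN1 was higher by 0.32 (0.3164) and LRP5 by 0.24 (0.2358) in double-KO than in CGNL1-KO cells. Over all genes, 5.19% differed between CGN-KO and CGNL1-KO cells and 14.4% between double-KO and CGNL1-KO cells. Of 21 other settings, the RNF43 call held in 6 and that of GSK3B between double-KO and CGNL1-KO cells in 20, the fewest and the most. The 3 calls between CGN-KO and CGNL1-KO cells were lost with only these 2 groups in the fit. With the neighbours' shift taken out, only the TCF7L1 and RNF43 calls held. Groups of 3 libraries are too small for a check of single libraries as outliers.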

How the results depend on the processing

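Of 630 values of the 10 genes under the alternatives, 619 kept their direction and their side of the threshold or were not called, 8 lost a call, 3 gained one, and none of the called values turned. This tally does not measure stability. Leaving out a library of a genotype outside a comparison cannot move its difference, and most of the 30 values were not called to begin with. With the neighbours' shift taken out, an alternative added after seeing the data, 2 genes were called in double-KO cells (4 as reported), 4 of the 10 differed among the genotypes (7 as reported), 2 differences between KO lines were called (6 as reported), and 15 other Wnt genes were called in double-KO cells (23 as reported). With only the groups compared in the fit, 5 other Wnt genes were called in CGNL1-KO cells (9 as reported). RNF146 in double-KO cells turned to −0.0068 with its chromosome's shift taken out and to −0.038 with its neighbours' shift taken out. On leaving out 1 library, other Wnt genes called ranged from 12 to 20 in CGN-KO and from 15 to 26 in double-KO cells, differences between KO lines from 1 to 6, and members that differed among the genotypes from 5 to 7. The share of all genes called under each alternative was not set beside these counts. A change over all genes and one in these genes thus cannot be told apart. Beyond the construction of each alternative, the cause was not tested.

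With the replicate number as a block over the 11 numbered libraries, 4, 3, and 5 of the 10 genes were called in CGN-KO, CGNL1-KO, and double-KO cells, 7 differed among the genotypes, and 6 differences between KO lines were called, against 3 for the same libraries without the block. Other Wnt genes called with the block were 25, 13, and 24. The share of all genes called with the block was not set beside these counts, so they show no gain particular to Wnt genes. AXIN2 in double-KO cells was the call that the block added among the 10 genes. Of 37 calls of the other named genes, 25 held under every alternative and 12 were lost under at least 1. These genes were named for being called and lying apart from WT in the same libraries, so calls that hold were favoured in advance. AXIN2, TCF7L1, and RNF43 in WT cells rest on 23 to 97 reads per library.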
